A study of Homo sapiens with 4 samples.

Results

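MALAT1 (ENSG00000251562.11) is a long non-coding RNA gene on the plus strand of chromosome 11, at chr11:65497640-65508073 in hg38 by GENCODE release 44. Its members here are the rows of the m6A-SAC-seq site table whose stated position lies in this span on the plus strand. There are 26 of them among the 275 single-nucleotide sites of the table (9.45%). The other 249 sites are the background. The 4 libraries behind the table were made from ribosomal-RNA-depleted, chromatin-associated RNA of WT K562 cells, an established line from a chronic myeloid leukaemia, all grown under 1 protocol: input RNA treated with MjDim1, input RNA left untreated, RNA pulled down with RBFOX2 and treated with MjDim1, and RNA pulled down with RBFOX2 and left untreated. The RBFOX2 was purified full-length protein added to isolated RNA, so the pulldown does not record binding inside cells. The labels name K562 as the line but give the cell type as a hepatoma, and the table holds no expression values that could check either. Each condition had 1 library, so no difference between levels could be tested across libraries, and sites of 1 RNA share their libraries and are not replicates.

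MALAT1 RNA is abundant in most human cells, stays in the nucleus, collects in nuclear speckles beside splicing factors, and is largely unspliced. m6A is written on it co-transcriptionally by the METTL3–METTL14 complex, which acts mainly at DRACH (where D is any base but C, R is a purine and H is any base but G), and is read in the nucleus by proteins such as YTHDC1. One of its m6A sites is a textbook m6A switch: methylation of a GGACU in a hairpin loosens the helix and exposes an opposing run of U to the splicing factor HNRNPC. In m6A-SAC-seq, MjDim1 adds an allyl group to m6A, iodine converts the product, and reverse transcription then misincorporates at that adenine. The m6A level is the mutation frequency there, in percent. MjDim1 is known to label m6A better in GAC than in AAC.

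For each site the deposited table gives 2 levels and their ratio, the second over the first, without saying which library either belongs to. They are called the first and the second level here. Sites were kept by the authors only above minimums of coverage and mutation frequency, and the lowest level in the table is 5.02%. The coverage of each site is not given, and the error of a single level was not estimated.

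Of the 26 sites, 9 carry the results that follow, because their first or second level was highest, because their ratio was highest or lowest, or because both levels reached 20%. Their sequences are 21 nt of hg38 written as RNA, 5′ to 3′, named by the position of the central adenine on chromosome 11, with the site's 5-mer in capitals.
65499524: ugauuaaaAGACCuugaaauc
65499944: aguauagaAGAUAgaaaaaua
65500175: uacuaaaaGGACUgguguaau
65500276: aaugugaaGGACUuucguaac
65500338: uuugcauuGGACUuugaguua
65500372: aauccugaGGACUagcauuaa
65500481: ugaagcuaGGACUgaggagca
65501668: accuucagGGACUggagcugc
65502719: cuccuuggUGAAUugauaagu
Both levels reached 20% at 4 of the 26 MALAT1 sites, near the share over all sites of the table (38 of 275, 13.8%). All 4 have GGACU, a form of DRACH that METTL3–METTL14 favours. Outside the 5-mer these sequences differ, and the 2 lowest ratios among GGACU sites belong to neighbours 34 nt apart, at 65500338 and 65500372.

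The sites did not cover MALAT1 evenly. Counted from 1 at the GENCODE start, the first lay at position 1727 and the last at 8326 of 10434 nt. GENCODE gives MALAT1 66 transcripts, 1 of which is a single exon over the whole span, so all 26 sites are exonic. They lay in no other plus-strand gene, and the 31 nt around each have 1 exact copy in hg38. The antisense gene TALAM1 (chr11:65499312-65507432, minus strand) covers every one of them, but the table lists 0 minus-strand sites in the span. The median distance between neighbouring sites was 134 nt, from 23 to 1203 nt, and 6 sites had a neighbour within 50 nt. The densest stretch was from position 2001 to 3000, with 8 sites. No site was listed in the first 1000 nt or after position 9000. The last site is 551 nt before the end of the RefSeq gene (chr11:65497738-65506516), the part of MALAT1 known for the triple helix that protects the 3′ end.

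**Figure D1:**
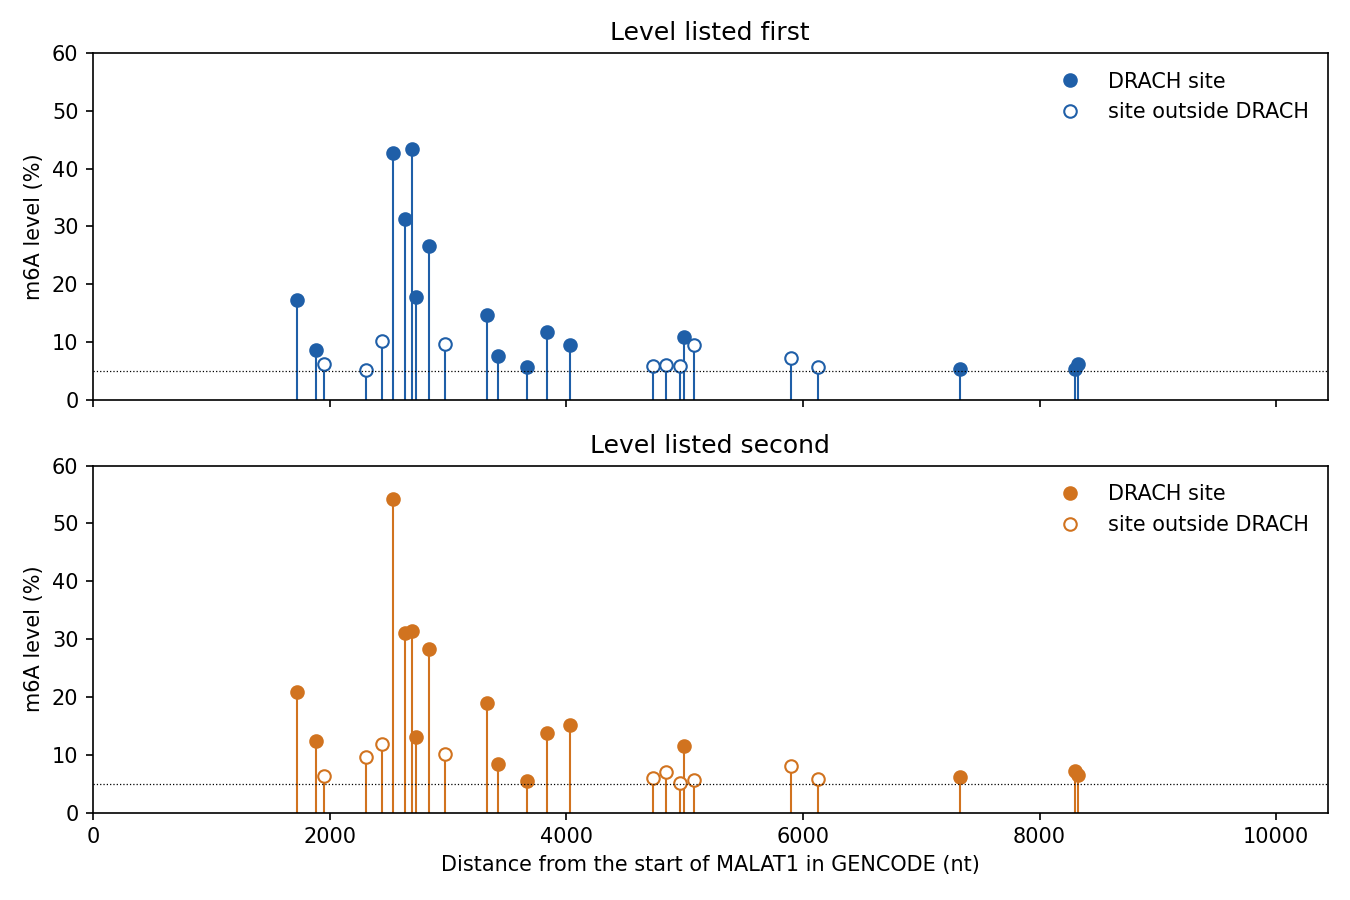
m6A level in percent (vertical axis) of the 26 MALAT1 sites against distance from the GENCODE start in nt, with the first level above and the second level below; filled circles are DRACH sites, open circles other sites, and the dotted line marks 5%. The 5 GGACU sites between positions 2536 and 2842 stand above the rest in the first level, and beyond position 5000 no level exceeds 9.46%.

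The highest m6A levels lay in a block of 5 GGACU sites within 307 nt (chr11:65500175-65500481). At 65500175 the first level was 42.7% and the second 54.3%, the highest second level in MALAT1 and rank 18 of all 275 sites. At 65500276 they were 31.3% and 31%. At 65500338 they were 43.4% and 31.4%, the highest first level in MALAT1 and rank 6 of all sites. By its sequence this last adenine is the one known as the HNRNPC switch. Shown at greater length, because the U run that pairs across the hairpin lies upstream, with the U run and the 5-mer in capitals, chr11:65500324-65500352 on the plus strand reads:
65500338: ugUUUUUgcauuGGACUuugaguuaagau
The U run ends 8 nt before the site. Next to it, 65500372 had levels of 17.9% and 13.1%, and 65500481 had 26.6% and 28.3%.

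Within the block the second level was higher at 2 sites and lower at 3, while in the whole table it was higher at 85.8% and lower at 13.8% of sites. Where the first level was 20% or more, the second level was lower at 2 of 4 MALAT1 sites and at 9 of 36 others. The largest fall anywhere in MALAT1 was at the switch site, 12.0 percentage points (ratio 0.72), and the largest rise was at 65500175, 11.6 points (ratio 1.27). These sites lie 163 nt apart in 1 RNA and carry the same 5-mer. Both are differences between single libraries of unknown depth at the site, and neither could be tested.

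The 5 sites upstream of the block all had a second level above the first, near the share over all sites of the table (85.8%). The GGACU at 65499366 had 17.3% and 20.9%. An AGACC at 65499524 had 8.71% and 12.4%, ratio 1.42, and an AGACG at 65499593 had 6.27% and 6.41%. None of these had a first level as high as any site of the block. The AGAUA at 65499944, with 5.11% and 9.65%, had the highest ratio of MALAT1, 1.89, and one of the lowest first levels of the table (rank 273 of 275). The AGAUG at 65500079 had 10.1% and 11.8%. AGAUG is the non-canonical 5-mer most frequent in the table.

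Downstream of the block 16 sites followed, with levels that mostly sat near the minimum for listing. Between 65500615 and 65501668 there were 6. The GGAUU at 65500615 had 9.65% and 10.1%, the AGACU at 65500967 had 14.8% and 18.9%, and the AGACA at 65501066 had 7.54% and 8.44%. The UGACU at 65501305 was the lowest DRACH site of MALAT1 by the second level, with 5.70% and 5.47%. An AGACU at 65501474 had 11.7% and 13.8%, and the GGACU at 65501668 had 9.43% and 15.1%. The last of these has the second highest ratio in MALAT1, 1.60, and is the GGACU site with the lowest first level.

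Around the middle of the RNA the listed sites were mostly outside DRACH. A UGAUG at 65502372 had 5.94% and 5.98%, an AGAUG at 65502479 had 6.08% and 7.07%, and a UGAUG at 65502604 had 5.88% and 5.05%. The AGACU at 65502637 had 10.8% and 11.5%, and was the only DRACH site among these. The UGAAU at 65502719 had 9.46% and 5.70%, the lowest ratio of MALAT1 (0.60), in a 5-mer that no other site of the table has. An AGAUG at 65503538 had 7.20% and 8.06%, and an AGAUC at 65503763 had 5.63% and 5.72%.

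The 3′ portion held 3 sites, all AGACU. At 65504966 the levels were 5.31% and 6.19%, at 65505942 they were 5.32% and 7.14%, and at 65505965 they were 6.23% and 6.56%. The 6 sites beyond position 5000 had both levels below 10%, as did 7 of the 20 before it, which ranged up to 43.4% and 54.3%. This cut was chosen with the values known, and the AGACU just before it, at position 4998, had 10.8% and 11.5%. In MALAT1 as a whole both levels were below 10% at 13 of 26 sites, against 15.6% of all sites of the table.

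By motif class, the table calls 16 MALAT1 sites DRACH (61.5%, 95% Wilson interval 42.5% to 77.6%) and 10 nonDRACH. Of the other 249 sites 77 were DRACH (30.9%, 25.5% to 36.9%). In NEAT1 4 of 8 sites were DRACH (50%, 21.5% to 78.5%). In exons of long non-coding RNAs other than MALAT1 12 of 31 were (38.7%, 23.7% to 56.2%). The intervals of these last 2 sets overlap that of MALAT1. The intervals cover counting error only, and the differences between the shares were not tested. DRACH sites of MALAT1 had a median first level of 11.3% (range 5.31% to 43.4%) and a median second level of 13.5% (5.47% to 54.3%). The 10 other sites had medians of 6.17% (5.11% to 10.1%) and 6.74% (5.05% to 11.8%), and 8 DRACH sites lay above every one of them in both levels. Without the GGACU block, the 11 remaining DRACH sites had medians of 8.71% and 11.5%. Levels are mutation frequencies, and the part of motif-dependent labelling in these differences was not tested.

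The sites used few of the adenines that MALAT1 offers. Its span holds 194 DRACH adenines, of which 16 were listed (8.25%, 5.14% to 13.0%). All 16 were of the form DGACH, of which there are 80 (20% listed), whereas 0 of the 114 DRACH adenines preceded by A were listed, which allows a share of up to 3.26% by the Wilson interval. All 26 sites follow a G, as did 224 of the other 249 sites of the table (90.0%) and 73 of the other 77 DRACH sites (94.8%), so the base before the site was much the same in other RNAs. The preference of MjDim1 for GAC bears on the same adenines, and its part in this was not tested.

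**Figure D2:**
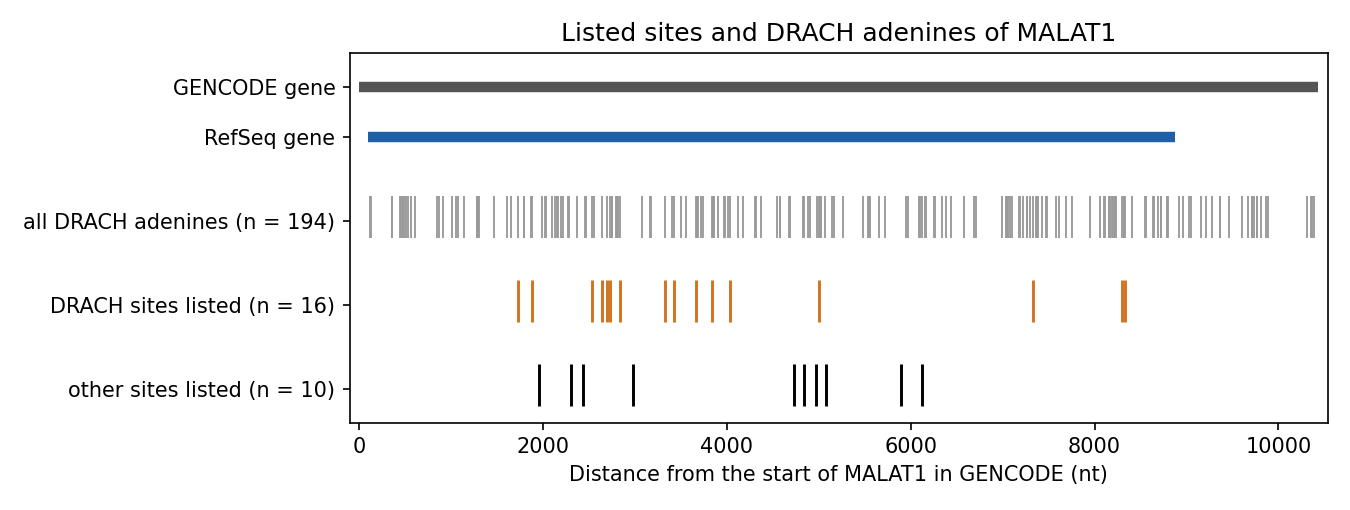
Map of MALAT1 to scale, with distance from the GENCODE start in nt on the horizontal axis; bars show the gene in GENCODE and in RefSeq, and ticks show all 194 DRACH adenines, the 16 DRACH sites listed and the 10 other sites listed. DRACH adenines run along the whole gene, while no site is listed in the first 1000 nt or after position 9000.

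Among these, GGACU and AGACU were the 5-mers most often listed. GGACU occurs 17 times in the span and 7 copies were listed. Between the first and the last listed copy, positions 1727 to 4029, all 7 of 7 were listed, and outside that stretch 0 of 10 were, of which 2 lie before it and 8 after it. This stretch was chosen after its values were seen. Its ends are listed copies, so 0 listed copies outside it follows from the definition. Of the 10 copies not listed, 4 lie outside the RefSeq gene. AGACU occurs 11 times and 6 copies were listed, spread from position 3328 to 8326, so listed AGACU copies reached further downstream than listed GGACU copies. AGAUG was listed at 3 of 16 copies and UGAUG at 2 of 16. The authors' filters include coverage, so an adenine that is not listed is not shown to be unmethylated.

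The levels at a given 5-mer differed between MALAT1 and other RNAs in opposite ways for the commonest DRACH forms. At the 7 GGACU sites of MALAT1 the median first level was 26.6% (range 9.43% to 43.4%), against 14.0% (5.76% to 35.6%) at 16 GGACU sites elsewhere. The second levels were closer, with medians of 28.3% and 23.1%. At the 6 AGACU sites of MALAT1 the median first level was 8.52% (5.31% to 14.8%), against 11.9% (5.88% to 87.5%) at 29 elsewhere, and the median second level was 9.31% against 25%. The ranges overlap in each of these comparisons, and none was tested.

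The 2 levels of MALAT1 sites lay close to each other. Their median ratio was 1.09 (binomial 95% interval 1.02 to 1.18), against 1.92 (1.68 to 2.13) at the other 249 sites. The second level was above the first at 20 of 26 sites (76.9%, 57.9% to 89.0%), against 85.8% of all sites of the table, so the direction alone was near the background. The second level was at least 1.5 times the first at 2 of 26 MALAT1 sites, 65499944 and 65501668, against 59.6% of all sites. The ratio was within 1.5-fold of 1 at 23 of 26 sites (88.5%), against 37.8% of all sites. The levels lay within 3 percentage points of each other at 17 of 26, against 23.3% of all sites. The median second-minus-first difference was 0.87 points in MALAT1 and 11.7 points at the other 249 sites. None of these differences between MALAT1 and the rest was tested, since sites are not replicates. The authors' filters include a minimum number of mutated reads, so a thinly covered site could be listed only at a high level. Coverage is not given, and its part in these differences was not tested.

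The ratios of MALAT1 sites also spread less in these values. Their standard deviation over sites on the log2 scale was 0.34 in MALAT1 and 0.84 elsewhere, and their range was 0.60 to 1.89 against 0.37 to 8.44. Across sites the log2 levels had a Pearson r of 0.93 in MALAT1 (n = 26 sites, Spearman rho 0.83) and of 0.56 at the other 249 (rho 0.55). All these points share the same libraries, and the part of coverage in the spread was not tested. Without the GGACU block, r was 0.84 over 21 MALAT1 sites. In the whole table, 23 of the 26 sites ranked lower by the second level than by the first, with median ranks of 231 and 162.5 of 275.

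**Figure D3:**
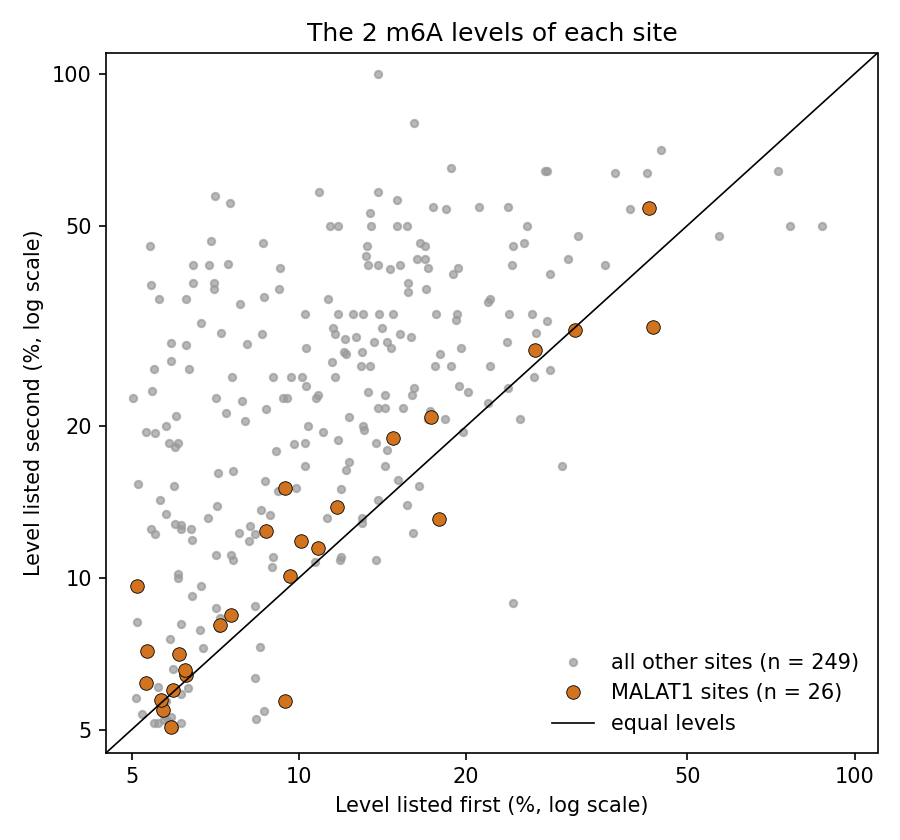
Second level against first level, both in percent on log scales, for the 26 MALAT1 sites and the 249 other sites, with the line of equal levels. Most sites of both sets lie above the line, 20 of 26 in MALAT1, but the MALAT1 sites stay nearer to it, with a median difference of 0.87 points against 11.7.

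The narrow ratios were found at low and at high levels. Among sites with a first level from 5% to 10%, the median ratio was 1.09 at 16 MALAT1 sites and 2.13 at 109 others. From 10% to 20% it was 1.18 at 6 sites and 2.11 at 104. At 20% or more it was 1.03 at 4 sites, all in the GGACU block, and 1.32 at 36. The minimum for listing keeps ratios from falling far where the first level is low. Coverage was not matched between the sets, so these strata cannot separate MALAT1 from coverage. Narrow ratios were also found in both motif classes: the median ratio at DRACH sites was 1.14 in MALAT1 and 1.79 elsewhere, and outside DRACH 1.03 and 1.96. MALAT1 sites had 12 different 5-mers, of which 10 also occurred elsewhere. For 9 of these 10 the median ratio was lower in MALAT1, the exception being AGAUC, with 1 site in each set. For most of these 9 as well, MALAT1 had only 1 site, so its value there is a single ratio. At AGAUG the median ratio was 1.16 over 3 sites in MALAT1, against 2.26 over 45 sites elsewhere.

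Among the other RNAs with at least 5 sites, the nearest in median ratio was NEAT1, the paraspeckle RNA that neighbours MALAT1 on chromosome 11, with 1.49 over 8 sites (binomial 95% interval 0.92 to 4.07). The difference from MALAT1 was 0.45 on the log2 scale. Its ratios ran from 0.92 to 4.07, with 4 of 8 sites at 1.5 or more, and its levels had medians of 8.68% and 11.4%. From 65423943 to 65426404 the NEAT1 ratios ran from 0.92 to 1.53, close to those of MALAT1. Further along, at 65430617, 65442027 and 65444022, they were 3.69, 4.07 and 1.65. This split of NEAT1 was made after the values were seen. The next was XIST, the RNA that coats the inactive X chromosome, with 2.07 over 6 sites. Sites in exons of long non-coding RNAs other than MALAT1 had a median ratio of 1.45 over 31 sites (1.08 to 2.33), with a standard deviation on the log2 scale of 0.94, a lower median than over all other sites and a spread no narrower than theirs. The intervals of NEAT1 and of these exons both overlap that of MALAT1.

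**Figure D4:**
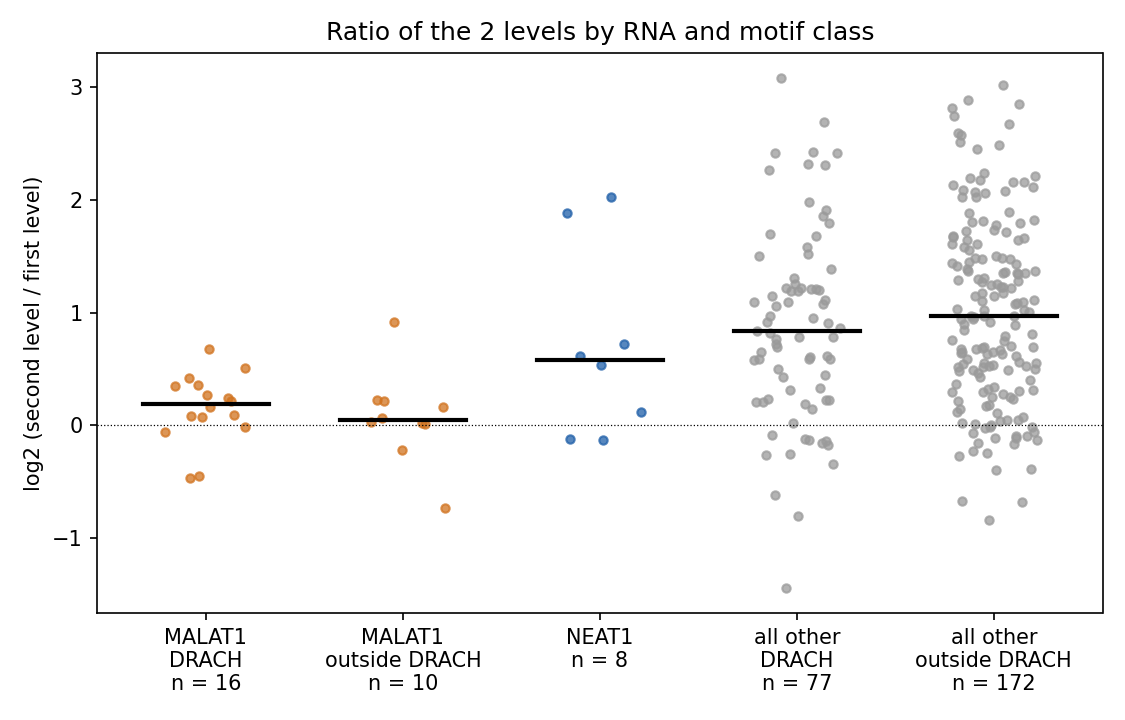
log2 of the second level over the first for single sites, by RNA and motif class; horizontal bars are medians, the dotted line is equality, points are spread sideways for legibility, and the groups of all other sites include the 8 of NEAT1. MALAT1 sites of both classes lie between -0.73 and 0.92, while other sites reach above 3.

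RBFOX2 binds RNA at GCAUG. On the RNA strand only, the letters GCAUG occur 9 times in the MALAT1 span and lay wholly within 50 nt of 1 of the 26 sites, the AGAUG at 65503538, whose GCAUG ends 19 nt upstream. This share (3.85%) compares with 8.13% of all 3026 adenines in MALAT1 and 36.5% of the other 249 sites. The ratio at that site was 1.12, above the 0.60 and 1.02 of the sites on either side and near the MALAT1 median. None of the 5 block sites has GCAUG within 50 nt. No match says only that these letters are not in the window.

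The run UUUUU, which HNRNPC can bind, was found on the plus strand wholly inside the 25 nt to either side for 7 of the 26 sites (26.9%). The share was 16.8% over all MALAT1 adenines and 26.1% over the other 249 sites. The 7 include the switch site and its neighbour at 65500372, which have the lowest ratios among the DRACH sites of MALAT1. The remaining 5 had ratios of 0.86 to 1.34. Folding of unmodified MALAT1 predicted with RNAplfold placed the switch adenine mostly in a helix, with a probability of being unpaired of 0.15. Over all 26 sites the median of that probability was 0.31 (binomial 95% interval 0.19 to 0.75), against 0.50 at 685 adenines of MALAT1 that also follow a G but are not listed. For GGACU alone the order was the opposite, with a median of 0.75 at the 7 listed adenines (range 0.095 to 0.94) and of 0.35 at the 10 not listed (0.013 to 0.95), and the ranges overlap over most of their width.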

How the data were processed

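Chromatin-associated RNA of K562 cells was profiled by m6A-SAC-seq in 4 libraries, 1 per condition. The authors trimmed reads (cutadapt 2.10), collapsed duplicates by molecular identifiers, aligned to hg38 (STAR 2.7.3a) and called mutations with VarScan. Adenines were kept by P value, by read coverage, by the number and frequency of mutated reads, and by their difference from the untreated library. Their deposited table gives per site 2 levels in percent, and as a ratio the second over the first. Which library each level comes from is not stated there. Depth and coverage are not given. The number of further columns with single-sample values was 0.

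Sites were matched to hg38 and GENCODE release 44 with Python 3.11.15 and numpy 2.4.6, and every 5-mer equalled hg38. Medians carry exact binomial and shares Wilson intervals (95%, scipy 1.17.1), which treat sites as independent and cover counting error only. No test was run. Pairing was predicted with RNAplfold of ViennaRNA 2.7.2 (window 200 nt, span 150 nt). Figures used matplotlib 3.10.9. Motif search and intervals were tested on simulated data. MALAT1, the motifs and the groups were chosen with earlier results of these data known. Sites described further were the 3 highest by each level, the 3 highest and lowest ratios and those with both levels at least 20%. Other genes named were NEAT1 and the 2 genes with at least 5 sites whose median ratio was nearest to MALAT1's.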

Additional observations from a re-analysis of the deposited data

How the results depend on the processing

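No paired analysis was possible because each condition has 1 library and the table does not assign its levels to libraries; no replicate could be left out for the same reason. Over 27 alternatives, 2 of them chosen after seeing the data, 21 stayed within the interval or within 1.5 times the value they were compared with. The median ratio of MALAT1 lay between 1.03 and 1.14 under 6 alternatives. That of the other sites was 1.45 in exons of long non-coding RNAs alone and 1.76 to 2.03 under the remaining 6. The share of MALAT1 sites with a higher second level was 7.69% when at least 1.5-fold or at least 5 percentage points was required. The share of DRACH adenines listed was 20% for DGACH. The number of sites with a neighbour was 2 within 25 nt and 14 within 100 nt. These last 5 values follow from the stricter or wider definitions themselves. Why exons of long non-coding RNAs differed was not tested. Coverage, which is not given, limits every single level.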
